A study of Rattus norvegicus with 25 samples.

Results

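Rat upper first molars that had been pulled, kept dry and put back were compared between day 7 and day 3 of healing, with both drying times pooled into a shared time effect. The comparison used 24 of the 25 libraries of the series: 12 from day 7 and 12 from day 3. They were chosen from the sample titles alone, and no measured value entered the choice. All replanted libraries came from tooth and periodontal ligament of Sprague-Dawley rats. In the immediate group (IR) the tooth was dry for 5 min, and in the delayed group (DR) for 60 min. Each drying group gave 6 libraries at day 3 (IR-3, DR-3) and 6 at day 7 (IR-7, DR-7). The remaining library, NT, is labelled as a control in both treatment and time, took no part in the fit and has no replicate, so its levels are given beside the others with no test. All 25 libraries carry 1 age label, postnatal day 21, with no word on whether surgery or collection took place then. Separate animals per library are not stated in the labels, so p-values measure only the spread between libraries, which may be technical.

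A replanted tooth heals through a sequence that overlaps with that of any wound. Blood clot and neutrophils come first, macrophages clear debris, lymphocytes follow, and fibroblasts and bone-forming cells lay down new collagen around the root. The periodontal ligament is the fibrous sheet that anchors the root to the socket bone. It is rich in type I collagen and holds a network of elastic system fibres. Cells in a fresh wound also need chaperones, the proteins that fold newly made or damaged proteins in the cytosol and in the endoplasmic reticulum (ER).

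The libraries held between 5043739 and 8811662 counts, and 11492 genes were tested. Ribosomal RNA took a mean of 19.3% ± 7.38 of day 3 counts and 20.5% ± 6.26 of day 7 counts (SD over 12 libraries in both). Levels are given as CPM, counts scaled to a common library size. Genes that mark periodontal ligament and bone were present: the medians of Postn, a ligament protein, were 142 CPM at day 3 and 717 CPM at day 7. The odontoblast gene Dspp lay below the filter on low counts, with 423 counts over all day 3 libraries and 70 over all day 7 libraries. Tissue lying near the upper molars was present unevenly at day 3. Genes of lipid-secreting glands (Elovl3, Thrsp and others of sebaceous and Harderian type) took 0.842% ± 1.10 of counts at day 3 and 0.0736% ± 0.143 at day 7 (permutation within drying groups, two-sided p = 0.0141, 0.141 after Benjamini-Hochberg adjustment over 10 quantities). In 4 day 3 libraries this share was over 1%, namely DR-3 replicates 1, 2 and 3 and IR-3 replicate 6. Genes of nasal and salivary glands took over 10% in IR-3 replicates 3 and 4, with 24.1% and 28.1%. Both thresholds were set after these shares had been seen. The results are therefore given with all 24 libraries, without these 6 libraries, and with the library means of the lipid gland, nasal gland and skeletal muscle lists as 3 covariates.

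**Figure D1:**
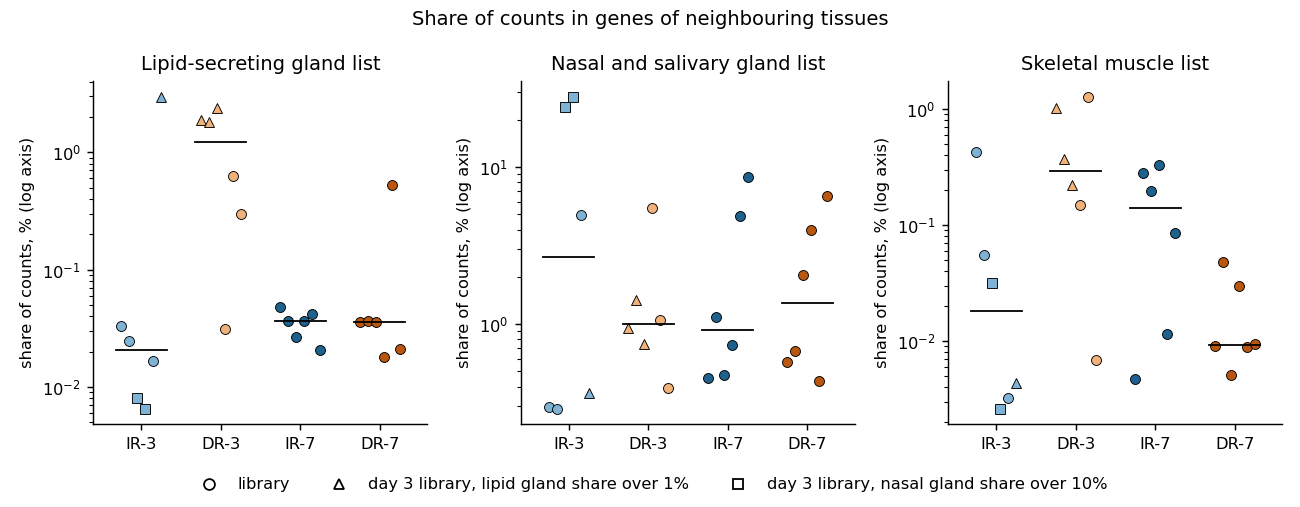
Share of counts in % (log axis) taken by the lipid-secreting gland, nasal and salivary gland and skeletal muscle lists in each replanted library, by group, with a line at the group median. Triangles and squares mark the 6 day 3 libraries of high gland share, of which 4 lie over 1% in the first panel and 2 over 10% in the second.

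With all 24 libraries, genes called higher at day 7 included part of those of lymphocytes, antigen presentation, interferon response, type I collagen and elastic fibres. Those called lower included some heat shock, ER folding and N-glycosylation genes. Fewer members were called without the 6 libraries of high gland share. Higher there were 2 of 13 T and NK cell, 0 of 9 B and plasma cell and 2 of 10 MHC class II genes. So were 1 of 19 interferon-stimulated and 2 of 16 elastic fibre genes. Lower were 2 of 18 heat shock, 1 of 24 ER folding and 1 of 28 N-glycosylation genes. The part of the gland tissue in these differences was not tested. In edgeR's quasi-likelihood test, 799 of 11492 genes (6.95%) were higher at day 7 and 1363 (11.9%) were lower, 2162 in all (18.8%), at a Benjamini-Hochberg adjusted p under 0.05. The median log2 fold change over all tested genes was -0.06. Every list count in edgeR with all 24 libraries is to be read against these shares, 6.95% higher and 11.9% lower. Without the 6 libraries of high gland share, 39 of 11836 genes were called (0.33%), 30 higher (0.253%) and 9 lower (0.076%), and all 39 were among the genes called with 24 libraries in the same direction. With the 3 tissue covariates 236 genes were called (2.05%), 114 higher (0.992%) and 122 lower (1.06%). Leaving out only the 4 libraries of high lipid gland share gave 211 calls (1.77%), 160 higher (1.35%) and 51 lower (0.429%). Leaving out only the 2 of high nasal gland share gave 1757 (14.9%), 585 higher (4.97%) and 1172 lower (9.95%). With the replicate number as a block in the fit, 1358 genes were called, 539 higher and 819 lower. Without the 6 libraries, 799 of the 799 rising genes still had a positive log2 fold change, with a median of 0.60 in place of 0.99. Of the falling genes 1310 of the 1349 still tested there stayed negative, and their median moved from -0.96 to -0.32. Both sets were picked from a fit that held all the libraries kept here, so the kept signs and shared calls are no independent check.

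The genes called in both fits were few and readily named, and those below that the naming rule does not cover were picked after their values had been seen. Among the 30 higher genes were the T cell genes Cd3d and Il2rb, the lymphocyte cytokine gene Ltb, the receptor gene Il21r, the antigen presentation genes Cd74 and RT1-Db1, the chemokine gene Cxcl13, the interferon-induced gene Gbp4 and the matrix genes Fbln1, Mfap2 and Col1a2. The 9 lower genes were Hsp90aa1, Hspd1, Hspa5, St13, Cacybp, Ccdc47, Slc35a3, Timm21 and Atp5a1. Hsp90aa1, Hspd1 and Hspa5 encode chaperones of the cytosol, the mitochondrion and the ER. St13 encodes a cochaperone of the heat shock protein Hsp70, and Timm21 a part of the mitochondrial import machinery. St13 had a median of 113 CPM at day 3 and 69.8 CPM at day 7.

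A stricter look asks whether the day 7 libraries lay wholly outside the day 3 libraries. This held for 9 genes upward (0.0783% of those tested) and 2 downward (0.0174%). The 9 included Arrdc2, Dennd1c, LOC100910973, Loxl3, Nfrkb, Il21r, Mfap2 and Col1a2, and the 2 were Atp5a1 and Stip1, a cochaperone that links Hsp70 to Hsp90. These names, too, were read off the data. Arrdc2, an arrestin-domain gene, ran from 3.81 through a median of 5.53 to 10.2 CPM at day 3 and from 10.4 through 14.2 to 17.9 CPM at day 7. The difference was a log2 fold change of 1.20 ± 0.16 (SE, edgeR adjusted p = 0.000282), and 0.94 without the 6 libraries (adjusted p = 0.0182).

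**Figure D2:**
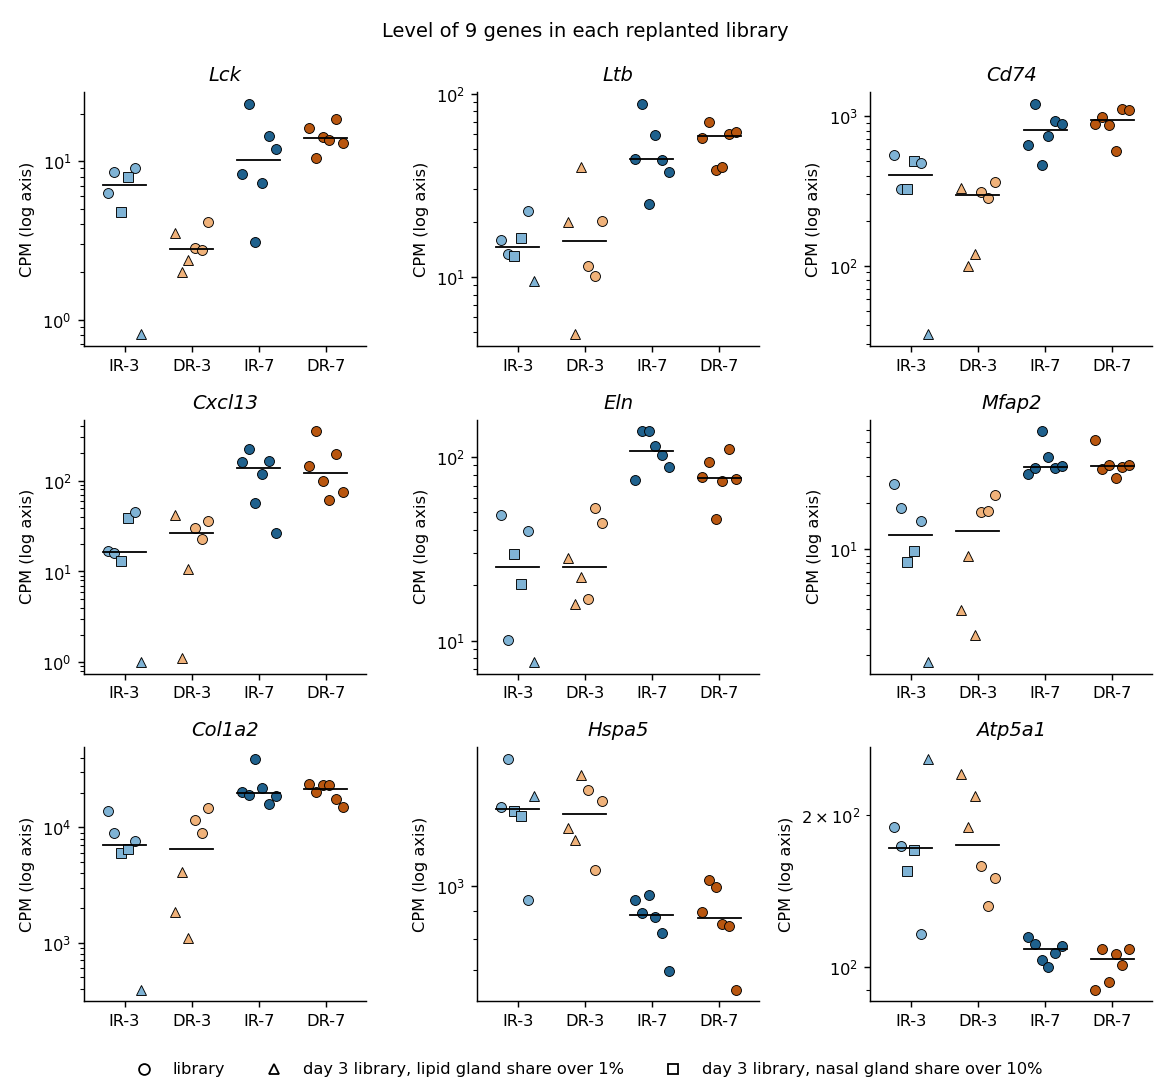
Level of 9 genes in CPM (log axis) in every replanted library, by group, with a line at the group median and symbols for the 6 day 3 libraries of high gland share. Mfap2 and Col1a2 at day 7 lie above every day 3 library and Atp5a1 lies below every day 3 library, while the other 6 genes overlap in some libraries.

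T cell transcripts had the highest median change among the 44 gene lists. Of 12 tested T and NK cell genes (17 listed), 10 were higher and 0 lower, against 6.95% higher among all genes tested. The list median was 2.04 on the log2 scale, against -0.06 over all genes. Leaving out the 6 libraries of high gland share gave a median of 1.70, 12 of 13 positive members and 2 called higher. With tissue covariates 4 were called higher. In bulk tissue, more cells of a type and more RNA per cell cannot be told apart. These values therefore do not say whether T cells were more numerous.

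Cd3d, a subunit of the T cell receptor complex, ran from 0 through a median of 3.35 to 6.22 CPM at day 3 and from 2.11 through 17.1 to 29.9 CPM at day 7. In 11 of 12 day 7 libraries it was above the highest day 3 library. The log2 fold change was 2.53 ± 0.52 (SE, edgeR adjusted p = 0.00601), or 5.78-fold, and it was 2.29 without the 6 libraries (adjusted p = 0.0402). NT stood at 2.48 CPM, within the ranges of both days. Lck, the kinase that starts receptor signalling, rose by 1.56 ± 0.34 (edgeR adjusted p = 0.00669), and Cd8a, the co-receptor of cytotoxic T cells, rose by 2.09 ± 0.48 (edgeR adjusted p = 0.00792). Both kept their direction without the 6 libraries, at 1.25 and 1.70, with adjusted p of 0.149 and 0.135. Reads of Cd3d and its close neighbour Cd3g could be shared, and Cd3g itself was not called (log2 fold change 0.64, edgeR adjusted p = 0.293).

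Ltb encodes lymphotoxin beta, a membrane cytokine by which lymphocytes organise lymphoid tissue. It ran from 4.84 through 14.6 to 39.8 CPM at day 3 and from 25.0 through 50.6 to 88.4 CPM at day 7. The highest day 3 value belonged to a library of high lipid gland share, and every day 7 library lay above the other 6 day 3 libraries, whose highest value was 22.8 CPM. The log2 fold change was 1.67 ± 0.26 with 24 libraries and 1.75 without the 6 (edgeR adjusted p = 0.0013 and 0.0182).

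B cell transcripts were also called higher in part. Of 8 tested B and plasma cell genes (12 listed), 5 were higher and 0 lower, with a median of 1.71, and of 1.60 without the 6 libraries, where 0 were called. Cd79b, a signalling subunit of the B cell receptor, had medians of 3.20 CPM at day 3 and 27.8 CPM at day 7 (log2 fold change 2.31 ± 0.57, edgeR adjusted p = 0.0101), with 33.7 CPM in NT. It was 2.30 without the 6 libraries (adjusted p = 0.154) and 2.61 with tissue covariates (adjusted p = 0.023). The medians of Pou2af1, a B cell transcription co-activator, were 2.78 and 13.4 CPM. Pax5, which fixes B cell identity, had 0 counts in all replanted libraries. Cd72, another B cell surface gene, was among the genes of smallest p (log2 fold change 0.91 ± 0.12, edgeR adjusted p = 0.000282). It lies within 1000 bases of Tesk1, a kinase gene, whose levels followed it with a correlation of 0.99 over the 24 libraries, so their reads could not be separated.

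Genes of antigen presentation through MHC class II, which displays peptides to helper T cells, rose in most of the list. Of 9 tested members (12 listed) 8 were higher and 0 lower, with a median of 1.38, and 9 of 9 were positive. The median was 0.92 without the 6 libraries, where 2 of 10 were called, and with tissue covariates 3 were called. Cd74, the invariant chain that guides MHC class II through the cell, ran from 34.6 through 325 to 548 CPM at day 3 and from 468 through 882 to 1215 CPM at day 7. In 11 of 12 day 7 libraries it exceeded the highest day 3 library. The log2 fold change was 1.50 ± 0.31, and 1.19 without the 6 libraries (edgeR adjusted p = 0.00601 and 0.0182). Ciita, the regulator that switches on MHC class II genes, rose by 1.74 ± 0.33 (edgeR adjusted p = 0.00471). The beta chain gene RT1-Db1 rose by 1.47 ± 0.29 (edgeR adjusted p = 0.00542), and Ctss, the protease that trims the invariant chain, by 1.43 ± 0.30 (edgeR adjusted p = 0.00601). MHC genes have near-identical copies, so the values of RT1-Db1 and its relatives are uncertain.

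Macrophage transcripts were higher as well, though none stayed called without the libraries of high gland share. Of 16 tested macrophage genes (18 listed) 11 were higher and 0 lower, with a median of 1.16. The median was 0.65 without the 6 libraries, where 14 of 16 were positive and 0 were called. Apoe, a lipid carrier of macrophages, had medians of 2068 CPM at day 3 and 5244 CPM at day 7 (log2 fold change 1.19 ± 0.25, edgeR adjusted p = 0.00643). The complement gene C1qb had medians of 75.3 and 190 CPM, and Adgre1, a macrophage surface receptor, of 7.71 and 21.6 CPM. Across the libraries the macrophage list mean lay between 2.80 and 4.03 log2 CPM in the 4 libraries of high lipid gland share. It lay between 4.50 and 6.56 in the 6 day 3 libraries below both thresholds, and between 4.98 and 6.91 at day 7. The part of the gland tissue in this difference was not tested.

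Neutrophil transcripts gave no call. Of 13 tested neutrophil genes (20 listed), 0 were called in edgeR, with 1 at an unadjusted p under 0.05, while DESeq2 called 1 and limma-voom 3. The median of 0.14 turned to -0.29 without the 6 libraries. Csf3r, the receptor for the neutrophil growth factor G-CSF, had a log2 fold change of 1.92 ± 0.69 (edgeR adjusted p = 0.0531), and the granule protease gene Ctsg one of -1.66 ± 0.86 (edgeR adjusted p = 0.17). Mast cell genes gave 0 calls of 9 in edgeR, with 3 at an unadjusted p under 0.05 and 1 called by DESeq2 and by limma-voom each (median 0.72). Erythroid genes gave 0 of 8 in edgeR, DESeq2 and limma-voom, with 0 at an unadjusted p under 0.05, and their median of 0.22 turned to -0.45 without the 6 libraries.

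**Figure D3:**
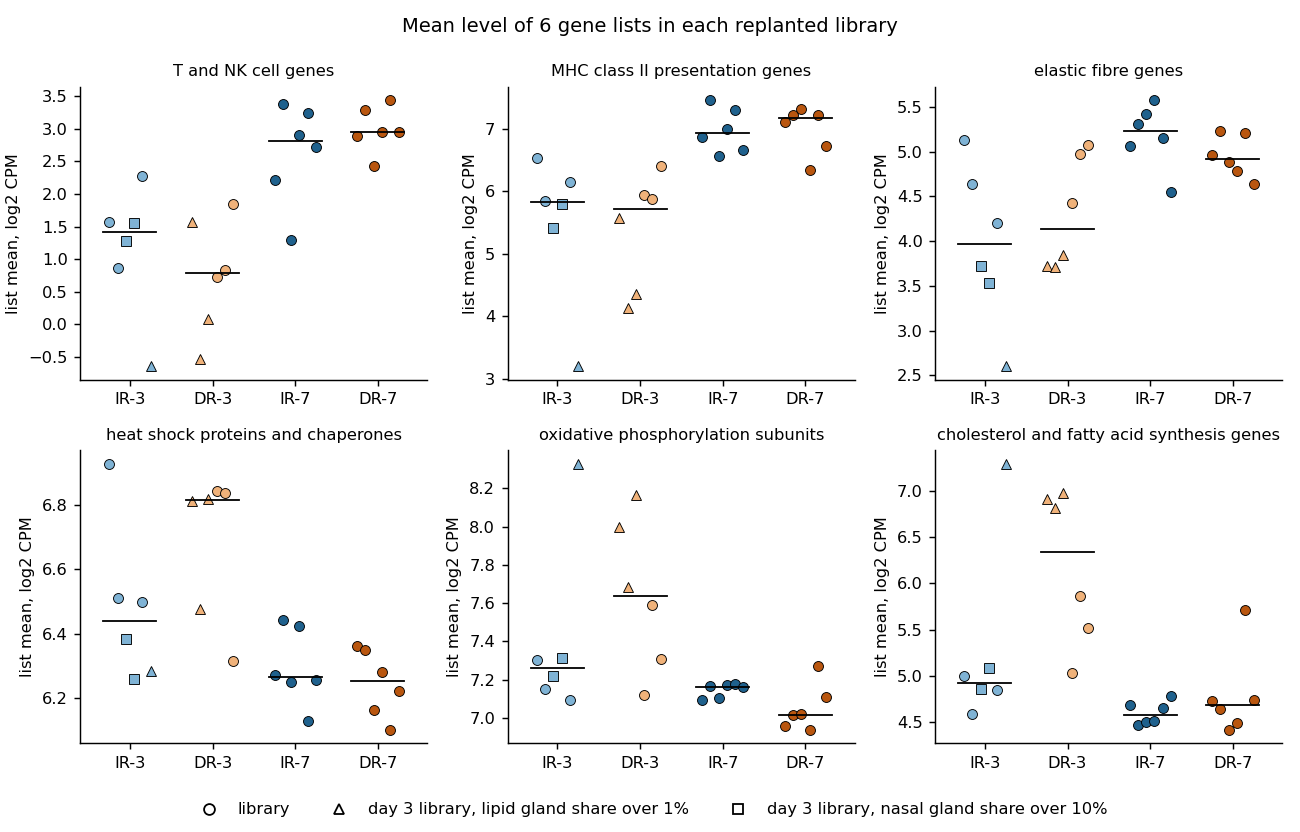
Mean log2 CPM of 6 gene lists in each replanted library, by group, with a line at the group median and symbols for the 6 day 3 libraries of high gland share. The T and NK cell mean runs from -0.64 to 2.28 at day 3 and from 1.29 to 3.44 at day 7, whereas the cholesterol and fatty acid synthesis mean is at least 6.81 in the 4 libraries of high lipid gland share.

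Chemokines are the secreted attractants of white blood cells. Of 23 tested chemokine genes (25 listed) 7 were higher and 0 lower, with a median of 1.13. Leaving out the 6 libraries gave a median of 0.41 and 1 call. That gene, Cxcl13, draws B cells into lymphoid follicles. It ran from 1.01 through 19.8 to 45.7 CPM at day 3 and from 26.4 through 131 to 351 CPM at day 7, and 11 of 12 day 7 libraries lay above all day 3 libraries. Its log2 fold change was 2.61 ± 0.50 with 24 libraries and 2.33 without the 6 (edgeR adjusted p = 0.00491 and 0.0455). Cxcl10 and Cxcl11, interferon-induced attractants of activated T cells, rose by 2.80 ± 0.70 and 3.27 ± 0.71 (edgeR adjusted p = 0.0108 and 0.00687). Both were near 0 in the libraries of high lipid gland share, with at most 0.373 and 0.341 CPM there, and without the 6 libraries their log2 fold changes were 2.08 and 2.59 with adjusted p of 0.222 and 0.159. Ccl5, an attractant of T cells and monocytes, rose by 1.13 ± 0.32 (edgeR adjusted p = 0.019).

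Interferon-stimulated genes leaned upward together. All 19 tested members (20 listed) had a positive log2 fold change, 9 were called higher and the median was 1.20. All 19 stayed positive without the 6 libraries, with a median of 0.87, and 1 was called. Gbp4, a guanylate-binding GTPase of host defence, ran from 0.858 through 1.30 to 4.26 CPM at day 3 and from 1.48 through 5.02 to 12.7 CPM at day 7. It was the called member, at 1.83 ± 0.33 with 24 libraries and 2.0 without the 6 (edgeR adjusted p = 0.00357 and 0.0489). Its relative Gbp2 had medians of 22.6 and 78.3 CPM (1.66 ± 0.43, edgeR adjusted p = 0.0121), and reads of this gene family may be shared between members. Mx1, an antiviral GTPase, rose by 2.16 ± 0.45 (edgeR adjusted p = 0.00601).

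The promoters of these genes share letters that the gene list did not use. An interferon-stimulated response element is written GAAANNGAAA on either strand. It was found in the 250 bases before the start site of 9 of the 13 interferon-stimulated genes that had a RefSeq promoter (69.2%), against 3.29% of 27457 rat promoters and 2.66% of the 9238 promoters of tested genes. Of the 13 genes 6 were called higher, and 4 of these 6 were among the 9 with the element. The share with the element describes the list and not the change between the days. No link between element and rise was tested. A match is a description of the sequence and not of binding. The stretches around the match in the guanylate-binding genes, of which Gbp4 kept its call without the 6 libraries, are given in the direction of the gene from RefSeq GRCr8, at chr2:233978456-233978485 and chr2:234005676-234005725 on the plus strand. Capitals mark the element, which reads on the opposite strand in both.
Gbp4: tcatctggcaagaagcagggTTTCGATTTC
Gbp2: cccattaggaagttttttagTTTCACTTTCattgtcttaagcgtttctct

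Matrix genes of the elastic fibre rose in part. These fibres have a core of elastin within a scaffold of fibrillin microfibrils, joined by fibulins and cross-linked by lysyl oxidases. Of 16 tested members (17 listed) 5 were higher and 1 lower, against 6.95% higher and 11.9% lower among all genes. The median was 0.71, and without the 6 libraries 2 were higher with a median of 0.04. With tissue covariates 4 were higher. Eln, elastin itself, ran from 7.64 through 25.2 to 53.0 CPM at day 3 and from 46.2 through 91.5 to 138 CPM at day 7. Of the day 7 libraries 11 of 12 lay above every day 3 library. The log2 fold change was 1.74 ± 0.27 (edgeR adjusted p = 0.0013), 1.42 without the 6 libraries (adjusted p = 0.0561) and 1.74 with tissue covariates (adjusted p = 0.0142). NT stood at 102 CPM, within the day 7 range.

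The partners of elastin differed among themselves. Fbln1, a fibulin that binds elastin, rose by 1.21 ± 0.19, from a median of 55.9 to 129 CPM (edgeR adjusted p = 0.0013, and 0.0182 without the 6 libraries at 0.88). Mfap2, a microfibril glycoprotein, ran from 1.81 through 12.4 to 26.3 CPM at day 3 and from 28.8 through 34.3 to 58.7 CPM at day 7, with no overlap (1.56 ± 0.32, edgeR adjusted p = 0.00601). Mfap4, another microfibril protein, rose by 1.24 ± 0.22 (edgeR adjusted p = 0.00322), and its levels correlated at 0.76 with its neighbour Mapk7, so shared reads are possible. Loxl1, the lysyl oxidase that acts on elastin, rose by 0.90 ± 0.25 (edgeR adjusted p = 0.016). The fibrillins were not called: Fbn1 had a log2 fold change of 0.35 and Fbn2 one of 0.56 (edgeR adjusted p = 0.559 and 0.401). Fbln5, a fibulin needed for elastin assembly, was the member called lower, at -1.93 (edgeR adjusted p = 0.0316). Its call was lost on leaving out any of 9 libraries, and it stood at -0.82 without IR-3 replicate 6 and at 0.01 without the 6 libraries. The genes Fbn1, Fbn2 and Fbln5 were named after their values had been seen.

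Type I collagen, the main fibre of ligament and bone, rose in edgeR, and calls among the other collagens depended on the tool. Of 13 tested collagen genes (17 listed) edgeR called 2 higher, both chains of type I, against 6.95% higher among all genes. DESeq2 called 7 and limma-voom 11. In edgeR 10 had an unadjusted p under 0.05, and 12 of 13 were positive with a median of 1.13. Col1a2 ran from 391 through 7067 to 14700 CPM at day 3 and from 14940 through 20260 to 39420 CPM at day 7, so the days did not overlap. Its log2 fold change was 1.59 ± 0.40, and 1.0 without the 6 libraries (edgeR adjusted p = 0.0107 and 0.0328). The lowest 4 day 3 values, up to 4115 CPM, were those of the libraries of high lipid gland share. Col1a1 rose by 1.54 ± 0.46 (edgeR adjusted p = 0.0238), by 0.86 without the 6 libraries (adjusted p = 0.0705) and by 1.58 with the replicate block (adjusted p = 0.060). NT held 43490 CPM of Col1a2 and 125900 CPM of Col1a1, above all replanted libraries.

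Among enzymes that process collagen, 4 of 18 tested members (20 listed) were higher and 0 lower, against 6.95% higher among all genes. The median was 0.62, and 0.06 without the 6 libraries. Loxl3, a lysyl oxidase that cross-links collagen, ran from 9.70 through 12.6 to 15.5 CPM at day 3 and from 15.6 through 18.6 to 25.7 CPM at day 7. It did not overlap between the days (0.62 ± 0.11, edgeR adjusted p = 0.00292), though its neighbour Htra2 correlated with it at 0.84 over the libraries and could share its reads. Adamts2, which removes the amino propeptide of procollagen, rose by 1.15 ± 0.25 (edgeR adjusted p = 0.00704). Matrix proteases and their inhibitors, counted as 1 list, gave no call in edgeR: 0 of 21 tested genes passed, with 7 at an unadjusted p under 0.05 and a median of 0.74, while DESeq2 called 6 and limma-voom 10. The smallest p in that list were those of Mmp16 and Mmp14, membrane-bound matrix metalloproteinases, at 0.91 ± 0.33 and 1.27 ± 0.47 (edgeR adjusted p = 0.056 and 0.0586), and DESeq2 called both.

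Part of the bone-forming transcripts rose. Of 14 tested osteoblast and mineralization genes (16 listed) 7 were higher, 14 of 14 were positive and the median was 0.89. Col1a2 alone stayed called without the 6 libraries, where the median was 0.43. Phex, an endopeptidase of phosphate balance in bone and tooth, had medians of 54.9 and 128 CPM (1.28 ± 0.39, edgeR adjusted p = 0.0278). Its call was lost without DR-3 replicate 1, at 1.20, and without IR-7 replicate 3, at 1.16. Smpd3, a sphingomyelinase needed for mineralization, rose by 0.91 ± 0.27 (edgeR adjusted p = 0.0239). The list mean lay between 3.95 and 6.96 log2 CPM in the 4 libraries of high lipid gland share. It lay between 7.71 and 9.09 in the 6 day 3 libraries below both thresholds, and between 8.33 and 9.39 at day 7. The part of the gland tissue in this was not tested.

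Lists of ligament, other tooth and bone cells and vessels gave between 1 and 4 calls each in edgeR, against 6.95% called higher among all genes tested. With 1 call of 12 each, the osteoclast and odontoblast lists lay close to that share in edgeR. DESeq2 also called 1 in each, while limma-voom called 6 osteoclast and 4 odontoblast genes. It called 8 ligament, 3 osteocyte and 7 endothelial genes as well. Of all 11492 genes limma-voom called 1509 higher and 908 lower. Of 15 periodontal ligament genes 4 were higher with a median of 0.79, which was 0.21 without the 6 libraries. Among them Tnmd, a marker of mature tendon and ligament cells, had medians of 2.72 and 12.6 CPM (1.84 ± 0.45, edgeR adjusted p = 0.00973). Spon1, an extracellular matrix adhesion gene, rose by 1.06 ± 0.32 (edgeR adjusted p = 0.025), and Bgn, a small proteoglycan that binds collagen, by 1.09 ± 0.33 (edgeR adjusted p = 0.0269). Osteoclast genes (1 of 12 called, median 0.51), osteocyte genes (1 of 8, median 0.60) and odontoblast genes (1 of 12, median 0.62) were mostly positive with all libraries. Their medians without the 6 libraries were -0.08, -0.04 and -0.13. The osteocyte call and the odontoblast call were the same gene, Phex, already counted among the osteoblast genes above, where its call was lost without either of 2 single libraries. Endothelial genes (3 of 15 called, median 0.66, and 0.17 without the 6 libraries) included Ets1, a transcription factor of vessels and lymphocytes, which rose by 0.98 ± 0.26 (edgeR adjusted p = 0.0152).

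Signalling genes of bone and ligament growth gave scattered calls. In edgeR 2 of 20 tested BMP and TGF-beta genes were higher, close to the 6.95% among all genes, with 6 at an unadjusted p under 0.05. DESeq2 called 5 and limma-voom 8, and the edgeR median was 0.52. Bmp4, a ligand of bone and tooth formation, had medians of 36.4 and 75.3 CPM (0.88 ± 0.25, edgeR adjusted p = 0.0183). Of 24 tested Wnt genes 3 were higher and 2 lower, against 6.95% higher and 11.9% lower among all genes, so the lower calls were no more frequent than in the background. The 2 lower ones encode Wnt co-receptors. Lrp6 fell by 0.90 on the log2 scale, from a median of 12.03 to 6.15 CPM (SE 0.18, edgeR adjusted p = 0.00601), and Lrp5, named after its value had been seen, fell by 0.72 (edgeR adjusted p = 0.0378). The Lrp5 call was lost on leaving out any of 15 libraries, and it was -0.10 without the 6. With tissue covariates Lrp6 was still called, at -1.06 (adjusted p = 0.0307), and without the 6 libraries it was -0.79 (adjusted p = 0.15). Among the higher ones were the Wnt enhancer Rspo1 (1.36 ± 0.41, edgeR adjusted p = 0.025) and the secreted protein Dkk3 (1.13 ± 0.35, edgeR adjusted p = 0.0268). Igfbp7, the called member of the insulin-like growth factor list, rose by 1.0 ± 0.26 (edgeR adjusted p = 0.0119), but its neighbour Polr2b correlated with it at 0.98, so its reads could not be separated from those of Polr2b.

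Part of the heat shock proteins and chaperones fell from day 3 to day 7. Of 18 tested members (18 listed) 8 were lower and 0 higher, against 11.9% lower among all genes, with a median of -0.47. All 18 were negative without the 6 libraries, with a median of -0.35, and 2 were called lower. With tissue covariates the median was -0.36 and 3 were called lower. The stress-inducible Hsp70 genes were not called: Hspa1a and Hspa1b, named after their values had been seen, had log2 fold changes of 0.18 and 0.13 (edgeR adjusted p = 0.742 and 0.816), and -0.36 and -0.49 without the 6 libraries, and reads of these near-identical copies may be shared.

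Hsph1, a nucleotide exchange factor that works with Hsp70, ran from 111 through 145 to 197 CPM at day 3 and from 60.0 through 83.4 to 111 CPM at day 7. In 11 of 12 day 7 libraries it was below the lowest day 3 library, and the remaining one stood level with it. It fell by 0.77 on the log2 scale (SE 0.12, edgeR adjusted p = 0.0013), and by 0.61 without the 6 libraries (adjusted p = 0.0721). Hsp90aa1, the inducible cytosolic Hsp90, ran from 799 through 1051 to 1803 CPM at day 3 and from 596 through 744 to 805 CPM at day 7. It fell by 0.69 (SE 0.12, edgeR adjusted p = 0.0025), and by 0.57 without the 6 libraries (adjusted p = 0.0183). Hspd1, the mitochondrial chaperonin, fell by 0.98 (SE 0.21, edgeR adjusted p = 0.00676), and by 0.65 without the 6 libraries (adjusted p = 0.0182). It shares a start region with Hspe1, its co-chaperonin, and their levels correlated at 0.83 over the libraries. NT held 635 CPM of Hsp90aa1, within the day 7 range and below all day 3 libraries, and 120 CPM of Hspd1, within the ranges of both days.

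ER folding genes were also lower in part. Of 24 tested members (24 listed) 9 were lower and 1 higher, against 11.9% lower and 6.95% higher among all genes, with a median of -0.40. The median was -0.29 without the 6 libraries, with 1 lower, and with tissue covariates it was -0.33 and 5 were lower. Hspa5, the main Hsp70 of the ER, known as BiP, ran from 942 through 1388 to 1718 CPM at day 3 and from 645 through 885 to 1025 CPM at day 7. The 6 day 3 libraries of high gland share all held at least 1215 CPM, above every day 7 library. The other 6 day 3 libraries ran from 942 through a median of 1418 to 1718 CPM. Hspa5 fell by 0.65 on the log2 scale (SE 0.11, edgeR adjusted p = 0.00183), by 0.60 without the 6 libraries (adjusted p = 0.0328) and by 0.75 with tissue covariates (adjusted p = 0.00392). Dnajc3, a cochaperone of BiP, fell by 0.94 (SE 0.16, edgeR adjusted p = 0.00266), and Canx, the lectin chaperone calnexin, by 0.59 (SE 0.12, edgeR adjusted p = 0.00579). Asns, an amino acid synthesis gene switched on by Atf4, fell by 2.04 (SE 0.45, edgeR adjusted p = 0.00704). Without the 6 libraries it was -0.60 (adjusted p = 0.613), and it held at least 80.2 CPM in every library of high gland share against 4.81 to 61.6 CPM in the other day 3 libraries. The member called higher was Chac1 (1.41, edgeR adjusted p = 0.0184), a glutathione-degrading enzyme of the same pathway, named after its value had been seen.

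Promoters of the heat shock and ER folding lists were searched for one element each. The ER stress response element is written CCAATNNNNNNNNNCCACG on either strand. It was found in 7 of 20 ER folding genes with a RefSeq promoter (35.0%), against 0.0765% of all 27457 promoters. The heat shock element, searched as GAANNTTCNNGAA on either strand, was found in 5 of 14 heat shock genes (35.7%), against 0.597% of all promoters. Both windows were the 250 bases before the start site. Of the 7 ER folding genes with the element 4 were called lower, as were 5 of the 13 without it. Of the 5 heat shock genes with their element 4 were called lower, as were 3 of the 9 without it. Hspd1 and Hspe1, both counted with the element and both called lower, share a start region. Their matched stretches overlap on chromosome 9, so they are not separate sites. No link between element and fall was tested. Of the 8 called genes with an element, 6 are shown with their matches from RefSeq GRCr8 in the direction of each gene, with the element in capitals, since they hold the chaperone falls of smallest p. A match is again no more than a description. The Hspa5 stretch lies at chr3:38452953-38453011 and Dnajc3 at chr15:102432514-102432572 on the plus strand, and Canx at chr10:35158049-35158107 on the minus strand. The Hsph1 stretch lies at chr12:10427312-10427364 and Hspa8 at chr8:50080439-50080491 on the plus strand, and Hspd1 at chr9:64084242-64084287 on the minus strand.
Hspa5: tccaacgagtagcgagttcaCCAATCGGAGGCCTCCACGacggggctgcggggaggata
Dnajc3: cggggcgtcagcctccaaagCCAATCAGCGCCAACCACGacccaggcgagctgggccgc
Canx: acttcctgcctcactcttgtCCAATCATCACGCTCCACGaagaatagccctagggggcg
Hsph1: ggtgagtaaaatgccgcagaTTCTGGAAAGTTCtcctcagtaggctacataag
Hspa8: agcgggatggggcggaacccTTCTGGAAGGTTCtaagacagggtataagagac
Hspd1: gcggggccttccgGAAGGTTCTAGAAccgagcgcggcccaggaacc

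N-glycosylation genes, which build sugar trees on proteins in the ER and trim them in the Golgi, were lower in part. Of 28 tested members (28 listed) 11 were called lower and 0 higher, against 11.9% lower among all genes, and the others did not pass the test. In 8 of 28 the log2 fold change was positive. The median was -0.27, and -0.16 without the 6 libraries, where 1 was called. Slc35a3, the Golgi transporter of UDP-N-acetylglucosamine, ran from 21.0 through 52.3 to 143 CPM at day 3 and from 10.6 through 18.4 to 26.9 CPM at day 7. It fell by 1.73 on the log2 scale (SE 0.26, edgeR adjusted p = 0.0013), by 0.93 without the 6 libraries (adjusted p = 0.0423) and by 1.19 with tissue covariates (adjusted p = 0.0277). Ngly1, which strips N-glycans from misfolded proteins, fell by 1.46 (SE 0.23, edgeR adjusted p = 0.0013), and Dad1, a subunit of the oligosaccharyltransferase, by 0.59 (SE 0.12, edgeR adjusted p = 0.00601). Without the 6 libraries these were -0.80 and -0.26, with adjusted p of 0.0731 and 0.136.

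Subunits of oxidative phosphorylation were negative in 28 of 28 tested members, with a median of -0.48. Of these 19 were called lower, against 11.9% among all genes. Without the 6 libraries 25 were negative, the median was -0.16 and 1 was called. That gene, Atp5a1, the alpha subunit of ATP synthase, ran from 116 through 172 to 258 CPM at day 3 and from 90.1 through 106 to 114 CPM at day 7. The days did not overlap. It fell by 0.78 (SE 0.11, edgeR adjusted p = 0.000902), and by 0.53 without the 6 libraries (adjusted p = 0.0182). Its sister subunit Atp5c1 fell by 0.65 (SE 0.15, edgeR adjusted p = 0.00797) and the succinate dehydrogenase subunit Sdhc by 0.64 (SE 0.15, edgeR adjusted p = 0.00913). The list mean was between 7.68 and 8.33 log2 CPM in the 4 libraries of high lipid gland share. It was between 7.10 and 7.59 in the 6 day 3 libraries below both thresholds, and between 6.94 and 7.27 at day 7. The part of the gland tissue in this fall was not tested. Cytosolic ribosomal proteins, by contrast, were positive throughout, 30 of 30, at a median of 0.24. Of these 9 were called higher, against 6.95% among all genes, and Rps19 was 1 of them (0.53 ± 0.12, edgeR adjusted p = 0.0079). Leaving out the 6 libraries left 28 of 30 positive, a median of 0.19 and 0 calls.

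**Figure D4:**
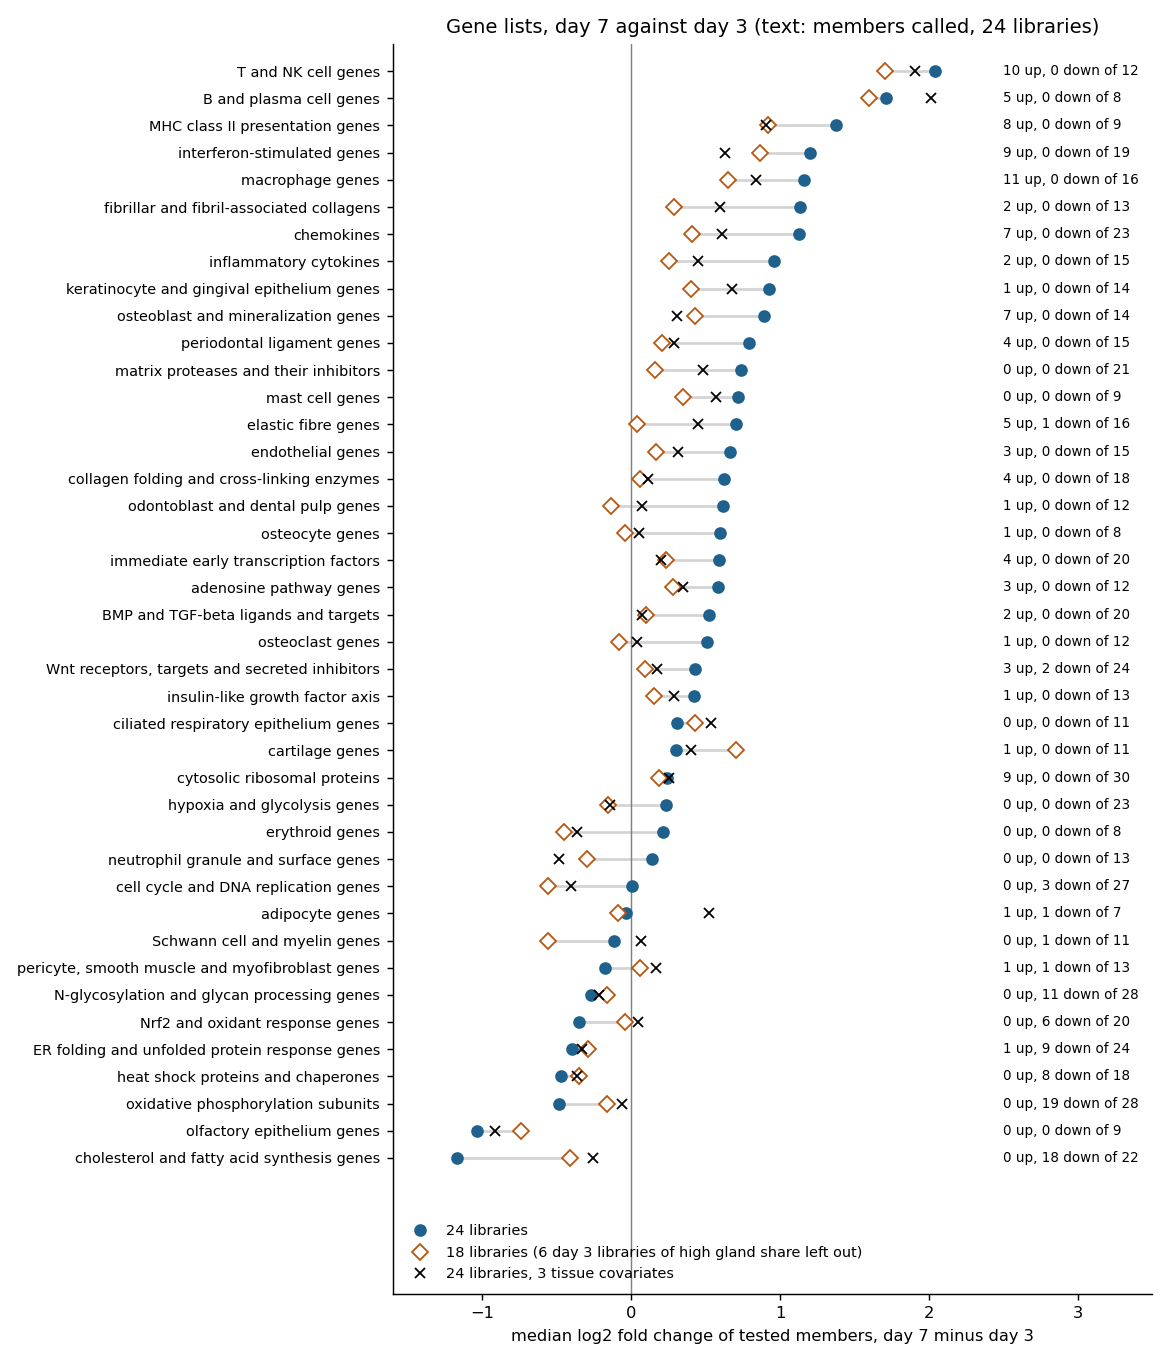
Median log2 fold change, day 7 minus day 3, of the tested members of 41 gene lists, from all 24 libraries (filled circles), without the 6 day 3 libraries of high gland share (open diamonds) and with 3 tissue covariates (crosses), with the members called higher and lower at the right. T and NK cell genes are highest at 2.04 and cholesterol and fatty acid synthesis genes lowest at -1.17, and the latter moved to -0.41 without the 6 libraries.

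Some of the steepest falls were in genes highest in the libraries of high lipid gland share. Rbp7, a retinol-binding protein of fat and gland cells, ran from 2.72 through 2295 to 55120 CPM at day 3 and from 8.86 through 14.1 to 4660 CPM at day 7. The values from 18870 to 55120 CPM belonged to the 4 libraries of high lipid gland share. It fell by 6.42 on the log2 scale (SE 1.85, edgeR adjusted p = 0.0203), by 1.74 without the 6 libraries (adjusted p = 0.604), and by 2.54 without IR-3 replicate 6 alone, where it was not called. Thrsp, a regulator of fatty acid synthesis, and Elovl3, a fatty acid elongase, fell by 5.79 and 6.24 (edgeR adjusted p = 0.0252 and 0.0184), by 1.15 and 1.72 without the 6 libraries (adjusted p = 0.777 and 0.629), and by 2.20 and 2.74, with no call, without IR-3 replicate 6.

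Cholesterol and fatty acid synthesis and the oxidant response followed that pattern. Of 22 tested lipid synthesis genes (28 listed) 18 were lower and 0 higher, with a median of -1.17. The median was -0.41 with 0 called without the 6 libraries. Acly, which makes the acetyl-CoA used for fat, fell by 3.43 (SE 0.75, edgeR adjusted p = 0.00704), and by 0.88 without the 6 libraries (adjusted p = 0.506). Sqle, an early enzyme of sterol synthesis, fell by 0.87 (SE 0.19, edgeR adjusted p = 0.00743), and by 0.33 without the 6 libraries (adjusted p = 0.391). The sterol element TCACNCCAC was found in 0 of 16 promoters of this list and in 0.976% of all promoters. Of 20 tested Nrf2 and oxidant response genes 6 were lower, against 11.9% among all genes. Their median was -0.35, and -0.04 with 0 called without the 6 libraries. Me1, malic enzyme, and Cat, catalase, fell by 3.01 and 2.50 (edgeR adjusted p = 0.00892 and 0.0101), and both calls were lost without IR-3 replicate 6, at -1.57 and -1.39. Sox10, a transcription factor of Schwann cells and of gland epithelium, fell by 2.74 (SE 0.58, edgeR adjusted p = 0.00629), and by 1.01 without the 6 libraries (adjusted p = 0.5). The other myelin genes were not called (1 of 11 called in all, close to the 11.9% lower among all genes, median -0.11). The part of the gland tissue in these falls was not tested.

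Cell cycle genes were centred near 0 with all libraries: 3 of 27 were lower, a share close to the 11.9% among all genes, 0 were higher, and the median was 0.01. Leaving out the 6 libraries moved the median to -0.56, with 26 of 27 negative and 0 called in edgeR. Of the called genes, Tyms, which makes thymidylate for DNA, fell by 1.80 (SE 0.45, edgeR adjusted p = 0.0106), and the mitotic kinase gene Aurka by 0.77 (SE 0.21, edgeR adjusted p = 0.0167). The 23 hypoxia and glycolysis genes gave 0 calls in edgeR, with 2 at an unadjusted p under 0.05, 2 called by DESeq2 and 1 by limma-voom, and their median of 0.23 became -0.15 without the 6 libraries. Immediate early transcription factors gave 4 higher of 20, against 6.95% among all genes, with a median of 0.59, and of 0.23 without the 6 libraries. Klf4 rose by 1.16 ± 0.28 (edgeR adjusted p = 0.00981).

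Skeletal muscle genes had medians of opposite sign in the drying groups, a difference that was not called for any gene. Of 15 tested members (16 listed) 0 were called in edgeR, with 2 at an unadjusted p under 0.05, 3 called by DESeq2 and 0 by limma-voom. All 15 were negative with a median of -1.94, which was 0.10 with the tissue covariates, the muscle list mean among them. Within IR the list median was 0.75, and within DR it was -4.77. Myh4, a fast myosin, had a log2 fold change of -0.87 in IR and -4.28 in DR, and Pvalb, a calcium buffer of fast fibres, had 0.08 in IR and -4.82 in DR. The share of counts in muscle genes was 0.296% at day 3 and 0.0846% at day 7 (permutation within drying groups, p = 0.118).

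No gene passed the test of the drying-by-time interaction in edgeR (0 of 11492, 0%), and 346 had an unadjusted p under 0.05, where 575 would be expected with no difference. DESeq2 called 11 and limma-voom 0, and limma-voom with sample quality weights, which gives libraries unequal weight, called 747. The 3 genes of smallest interaction p went opposite ways in the drying groups without passing adjustment. Ada, adenosine deaminase, had a log2 fold change of 4.28 in IR and -0.61 in DR, Lrrn4cl one of 2.50 and -0.47, and Mypn, a muscle sarcomere gene, one of 0.78 and -5.67. Taken singly, each drying group gave few calls in edgeR: 16 genes in IR (0.139%), 12 higher (0.104%) and 4 lower (0.0348%), and 1 gene in DR (0.0087%). These counts rest on the tool and on single libraries. DESeq2 called 760 in IR and 1069 in DR, limma-voom 9 and 1, and limma-voom with quality weights 4469 and 3921. Leaving out 1 library in turn, edgeR gave 0 to 402 in IR (highest without IR-3 replicate 1) and 0 to 1420 in DR (highest without IR-3 replicate 6), and with the replicate block it gave 0 in both. The gene in DR was Rfx5, a factor that binds MHC class II promoters (log2 fold change 1.11, edgeR adjusted p = 0.0378, and 0.51 in IR), named after its value had been seen. That call was lost on leaving out any of 14 of the 24 libraries in turn. Those in IR included Arrdc2, Eln, Fbln1, Slc35a3 and Ngly1. The pooled comparison averages both groups, so the signs of its leading genes in them are no independent check. Of these genes, Cd74 had log2 fold changes of 1.13 in IR and 1.88 in DR, Eln of 2.08 and 1.41, Col1a2 of 1.65 and 1.54, Hspa5 of -0.67 and -0.62, and Atp5a1 of -0.72 and -0.84.

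**Figure D5:**
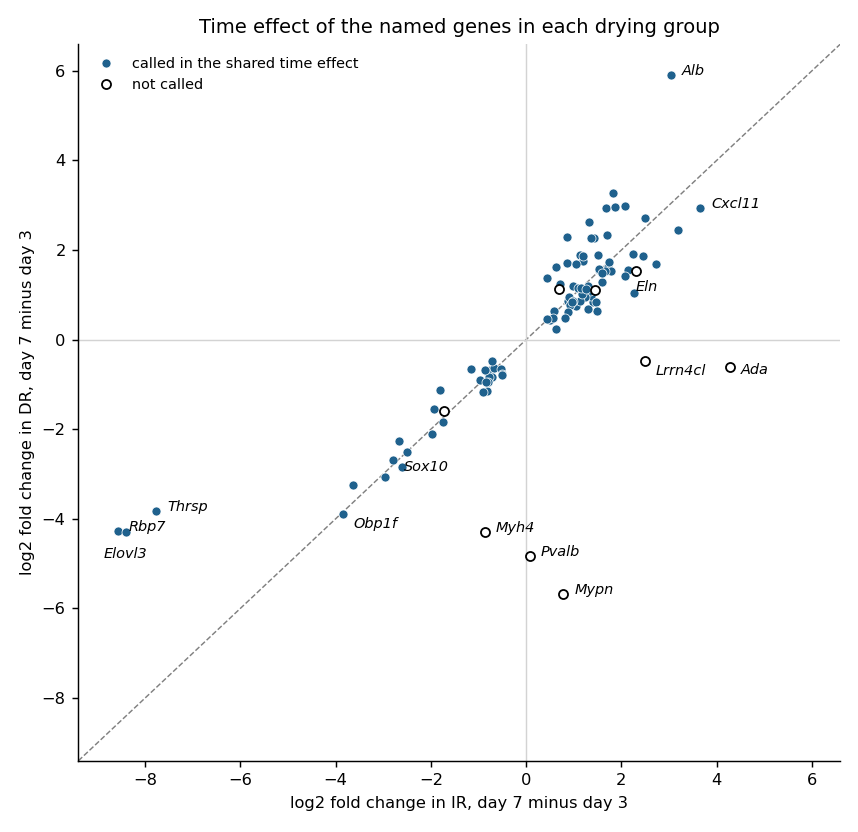
Log2 fold change from day 3 to day 7 in IR (horizontal axis) and in DR (vertical axis) for 103 genes allowed by the naming rule, with filled points for genes called in the shared time effect, open points for genes not called, and a dashed line of equal change. Eln lies at 2.08 and 1.41, while the uncalled genes Ada, at 4.28 and -0.61, and Mypn, at 0.78 and -5.67, lie far from the line.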

How the data were processed

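RNA of rat teeth with their periodontal ligament was sequenced from the 3′ end (QuantSeq) in 25 libraries. The authors deposited 1 table of raw gene counts per library with 17048 entries each. The submitters' processing notes name Bowtie2, edgeR and the builds mm10 and rn6 without their roles, while the counter, annotation and strand setting are not given in any source used. Where a symbol had several entries (149 symbols), the entry with the highest total was kept. Library totals ran from 5043739 to 8811662 counts. No 2 libraries held identical counts. Genes passing filterByExpr over the 4 replanted groups (11492) were tested on the deposited counts with edgeR 4.0.16 (R 4.3.3): TMM scaling, robust quasi-likelihood fit, day with drying group as covariate, and a 4-group model for each drying group and the interaction. Adjusted p-values are Benjamini-Hochberg over all tested genes, with a threshold of 0.05. Levels are CPM on the TMM-scaled library size, and list means are means of log2 CPM with a prior count of 2. The fits were tested on simulated data.

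Members and gene lists were chosen with earlier results of these data known. Named genes are those of the 8 highest and 8 lowest changes (average log2 CPM of 3 or more), the 6 of smallest p in each direction, up to 4 called per list (or the 2 of smallest p) and the 3 of smallest interaction p, and others are marked where they occur. Of the genes the rule allows, 103 were followed through the alternatives, not all are named, and some items are not reported here. Shares of counts were compared by permutation of days within drying groups (100000 resamples, two-sided). Alternatives were other scalings and filters, DESeq2 1.42.0, limma 3.58.1, other models, each library left out and, added after seeing the data, fits without libraries of high gland share or with tissue covariates. Same-numbered libraries of the 2 days did not deviate together (correlations from -0.493 to 0.337), nor did those of the drying groups at day 3 (-0.415 to 0.214). Those of IR-7 and DR-7 did (0.214 to 0.72, highest with the own number in 5 of 6), for a reason the labels do not give. The day comparison was therefore fitted without a block, and fits with one are given as alternatives. Of the 16881 symbols, 14393 equal a RefSeq GRCr8 symbol and 2096 a synonym. Promoters were read from RefSeq GRCr8, and no genome of the files' build was used.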

Additional observations from a re-analysis of the deposited data

Results flagged for a closer look

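In 11 of 40 groups of 6 libraries, for the share of counts in ribosomal RNA or a tissue list, for depth and for the number of genes detected, 1 library stood apart from the other 5 by Dixon's gap test. For normally distributed values chance would flag about 1 in 20 groups. Many of these shares are skewed and all come from the same libraries, so the rate by chance is not known here. The ribosomal RNA share was 31.2% in IR-3 replicate 2 and between 10.7% and 17.2% in the others. The lipid gland share was 2.98% in IR-3 replicate 6 and 0.526% in DR-7 replicate 5. The nasal and salivary gland share was 5.49% in DR-3 replicate 4. Olfactory epithelium genes took 0.172% in IR-3 replicate 5 and 0.0825% in IR-7 replicate 6. Skeletal muscle genes took 0.421% and keratinocyte genes 0.832% in IR-3 replicate 1. Erythroid genes took 2.18% in IR-3 replicate 5, 1.82% in IR-7 replicate 6 and 1.86% in DR-7 replicate 6.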

How the results depend on the processing

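Of 103 genes of the naming rule, all kept direction and status (called or not called) with RLE or upper-quartile scaling. The same held without ribosomal RNA entries and with repeated symbols summed. Genes called in neither the main fit nor the alternative count as kept, among them Csf3r, Ctsg, Mmp14, Mmp16, Myh4, Pvalb, Ada and Mypn. Without the 6 libraries of high gland share 28 kept both and 75 were no longer called. With tissue covariates 36 kept both, 65 were no longer called and 2 changed sign, Me1 (0.0115) and Cat (0.0221). Genes called in total, higher and lower were 39, 30 and 9 without the 6 libraries, 211, 160 and 51 without the 4 of high lipid gland share, 236, 114 and 122 with tissue covariates and 4335, 2270 and 2065 in limma-voom with quality weights. DESeq2 called 1262 higher, and limma-voom 1509 higher and 908 lower, a split of the opposite sign to edgeR's. The causes were not tested, beyond the smaller number of libraries where some were left out.

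The replicate numbers did not pair the libraries of day 3 with those of day 7, but at day 7 they paired IR with DR. With the replicate block 1358 genes were called, 819 of them lower, with 0 in IR and 0 in DR, and 17 of the 103 genes were no longer called, among them Col1a1, Bgn, Me1, Cat, Rbp7, Thrsp and Elovl3. With same-day pairs of drying groups as a random block in limma-voom 2642 were called, 1638 of them higher, and 3 of the 103 were no longer called.

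Leaving out 1 library gave 1360 to 2920 calls in total (lowest without IR-3 replicate 6), 581 to 1201 higher (lowest without DR-3 replicate 1, highest without IR-3 replicate 2) and 715 to 1719 lower (lowest without IR-3 replicate 6, and 811 without DR-3 replicate 3). It gave 0 to 0 for the interaction, 0 to 402 in IR (highest without IR-3 replicate 1) and 0 to 1420 in DR (highest without IR-3 replicate 6). The interaction gave 11 calls in DESeq2 and 747 with quality weights. In IR there were 760 calls in DESeq2, 9 in limma-voom, 4469 with quality weights, 1 without the 6 libraries, 81 without the 4 and 0 without the 2 of high nasal gland share. In DR there were 1069 in DESeq2, 3921 with quality weights, 20 with upper-quartile scaling, and 0 with RLE scaling, no filter, no ribosomal RNA entries, tissue covariates or without the 6, 4 or 2 libraries. Counts of single drying groups thus rest on the tool and on single libraries.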

Other observations

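Some tissue-specific transcripts came almost wholly from 1 replanted library and lay below the filter on low counts. Amy1a, salivary amylase, had 121034 counts in IR-7 replicate 5 and 189 over the other 23 replanted libraries. Bpifa2, a salivary protein, had 146957 and 166. NT held 0 counts of both. The odontoblast gene Dspp had 9035 counts in NT, at most 264 in any replanted library (DR-3 replicate 4) and 229 over the other 23.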
